A study of Homo sapiens with 8 samples.

Results

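The genes followed here are 37 genes of ribosome biogenesis, taken by name from a list of genes known to act in making the ribosome. They were chosen with earlier results of these data known. All 37 were found in the RNA-seq table, among 18143 genes whose values could be matched to their labels, and all 37 reached 1 FPKM in 2 or more libraries, the condition that 10710 genes met and were tested on. The libraries came from Raji, a Burkitt lymphoma line that is sensitive to rituximab (RSCL), and Raji-4RH, its rituximab-resistant derivative (RRCL). Each line received 3 μM chidamide, an oral inhibitor of histone deacetylases, or the solvent DMSO for 24 h, with 2 replicate libraries in each of the 4 groups. The labels state that cells were collected by flow sorting, without the gate, and the study's supplementary method mentions no sort. Raji-4RH is a single derived line, so that resistance and any other feature of this line cannot be told apart. No source says that the replicates came from separate cultures, so the p-values measure only the spread between these libraries, which may be technical.

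A cell builds ribosomes in the nucleolus. RNA polymerase I transcribes the ribosomal DNA into a long precursor, small nucleolar ribonucleoproteins (snoRNPs) guide its methylation and pseudouridylation, and large sets of assembly factors cut, fold and export the small and the large subunit. Burkitt lymphoma cells carry a translocated MYC gene, and MYC is known to drive many genes of this programme. The members were grouped by these roles into 6 genes of RNA polymerase I transcription, 7 snoRNP genes, 10 genes of small subunit assembly, 8 genes of large subunit assembly and 6 genes of structural and regulatory nucleolar proteins.

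The deposited values are FPKM, that is, read counts scaled to gene length and to the total of the library. Totals ran from 13991697 to 21193441 reads. For 18 of the 37 members the values stood below the label in the table and were moved back, and the other 19 shared a row with their label. The B cell markers MS4A1, CD79A and PAX5 and all 7 germinal centre and Burkitt markers tested, among them BCL6 and MYC, were at 1 FPKM or more in every library. The replicates of Raji-4RH chidamide differed more than those of any other group, with a chi-square per degree of freedom of 12.71 against 1.75 to 5.04 in the other groups, and the first of them was the shallowest library. FPKM is relative to the library total, so that fewer transcripts of a gene per cell and a change in the rest of the RNA cannot be told apart, nor can fewer cells of a type and less RNA per cell.

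The 37 genes took 1.02% and 1.05% of all reads in the 2 Raji DMSO libraries and 0.757% in each of the 2 Raji chidamide libraries. In Raji-4RH they took 1.13% and 1.14% of reads with DMSO, and 0.771% and 0.740% with chidamide. The chidamide libraries were below the DMSO libraries in both lines, with no overlap. Summed over the members, the level went from 2440 and 2496 FPKM to 1851 and 1853 FPKM in Raji, and from 2662 and 2675 FPKM to 1882 and 1771 FPKM in Raji-4RH. The most abundant member by mean FPKM was NPM1 (539 FPKM over the 8 libraries) and the least abundant was RRP12 (1.14 FPKM), with a median over members of 33.8 FPKM. Of the 37 genes, 32 had a mean of at least 10 FPKM.

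In Raji-4RH, 35 of the 37 genes fell with chidamide, none rose, and FBL and RRP9 did not pass the test (limma, Benjamini-Hochberg adjusted over all 10710 genes). Over all genes tested, 31.6% were called lower and 43.3% higher in this comparison. The median log2 fold change was -0.65 over the members and 0.09 over all genes. In Raji, 31 of the 37 genes fell, none rose, and 6 did not pass (FBL, GAR1, RRP1B, RRP9, RRP12 and GNL3), against 28.5% of all genes called lower and 31.5% called higher. The median was -0.38 over the members and 0.02 over all genes. The same 31 genes fell in both lines, and 33 members had both chidamide libraries below both DMSO libraries in both lines. The matching shares of all genes in both lines together were not counted, so nothing particular to the members is read from these joint counts. By line, 35 members were separated in this way in Raji-4RH, against 36.8% of all genes, and 34 in Raji, against 39.3% of all genes.

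**Figure D1:**
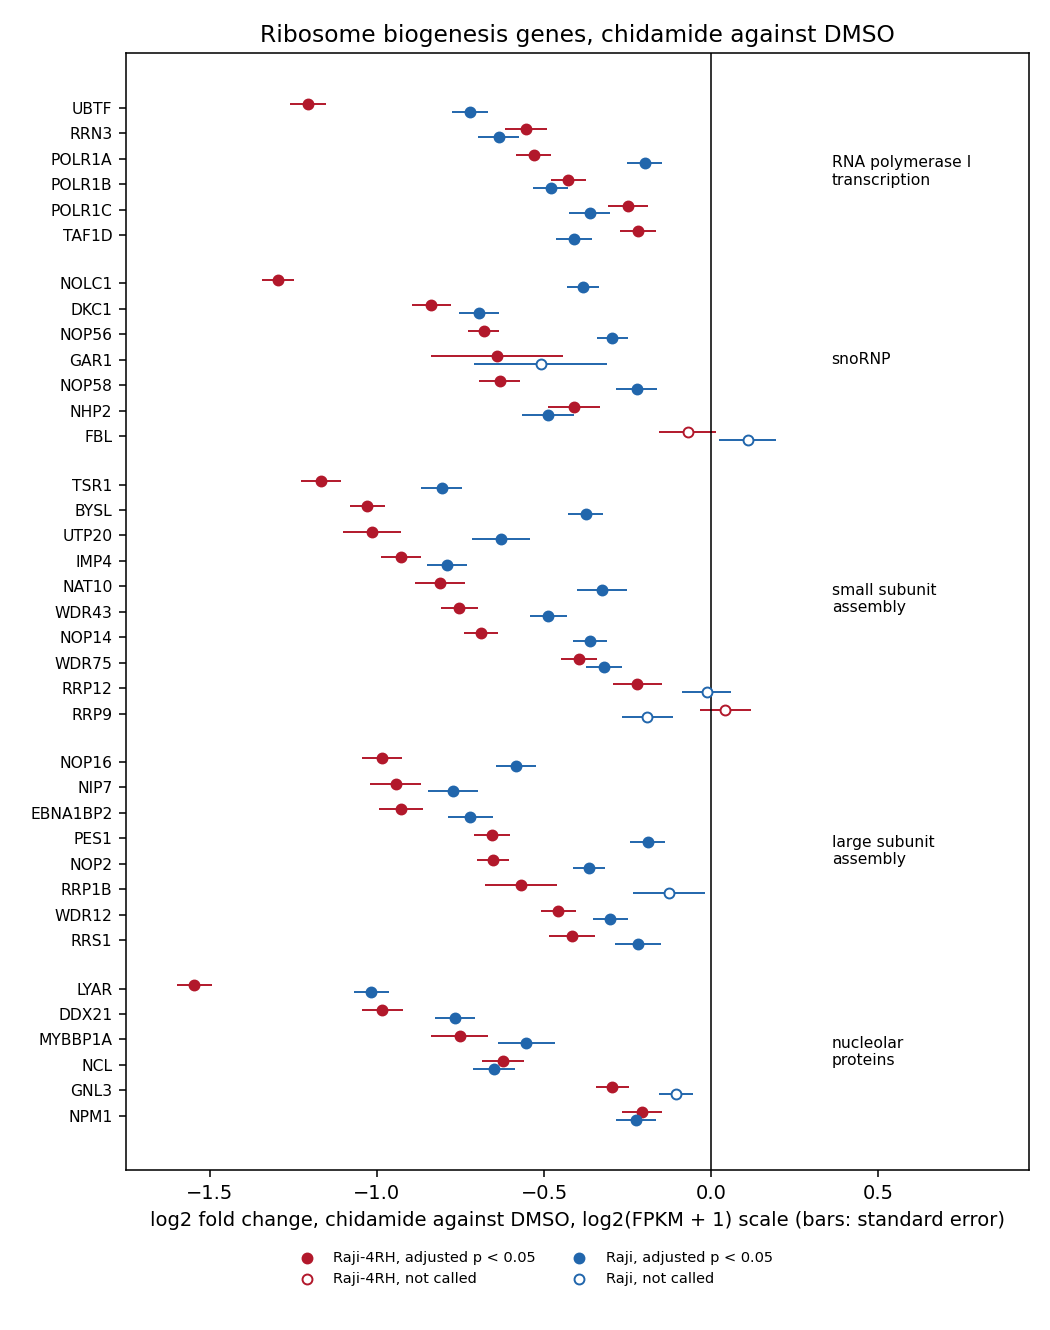
Log2 fold change of each of the 37 genes with chidamide against DMSO (horizontal axis, log2(FPKM + 1) scale, bars are standard errors), grouped by role, in Raji-4RH (red) and Raji (blue), with filled points for adjusted p under 0.05. All filled points lie left of 0, 35 in Raji-4RH and 31 in Raji, and LYAR lies farthest left in both lines.

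The calls depended in part on how the libraries were scaled. Quantile normalization shifted the median of all genes in Raji-4RH from 0.09 to -0.02 and turned the split of calls over all genes from 4642 higher and 3380 lower to 3718 higher and 4057 lower. The members then had 30 genes lower and 1 higher in Raji-4RH and 29 lower and 1 higher in Raji. The gene called higher was FBL in both lines (log2 fold changes of 0.20 and 0.24). Calls lost under it were those of GAR1, NHP2, POLR1C, TAF1D, GNL3 and RRS1 in Raji-4RH and of NOP58, PES1, POLR1A, RRS1 and NAT10 in Raji, while RRP9 was called lower in both lines and RRP1B and RRP12 in Raji. With median-centred libraries, 35 members were lower in Raji-4RH and 34 in Raji, and none was higher. Of the 35 calls in Raji-4RH, 31 were made whichever single library was left out, and of the 31 calls in Raji, 26 were. In the rows as deposited, without moving values back to their labels, 33 of the genes could be tested, of which 23 were lower and 4 higher in Raji-4RH, and 18 lower and 6 higher in Raji.

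**Figure D2:**
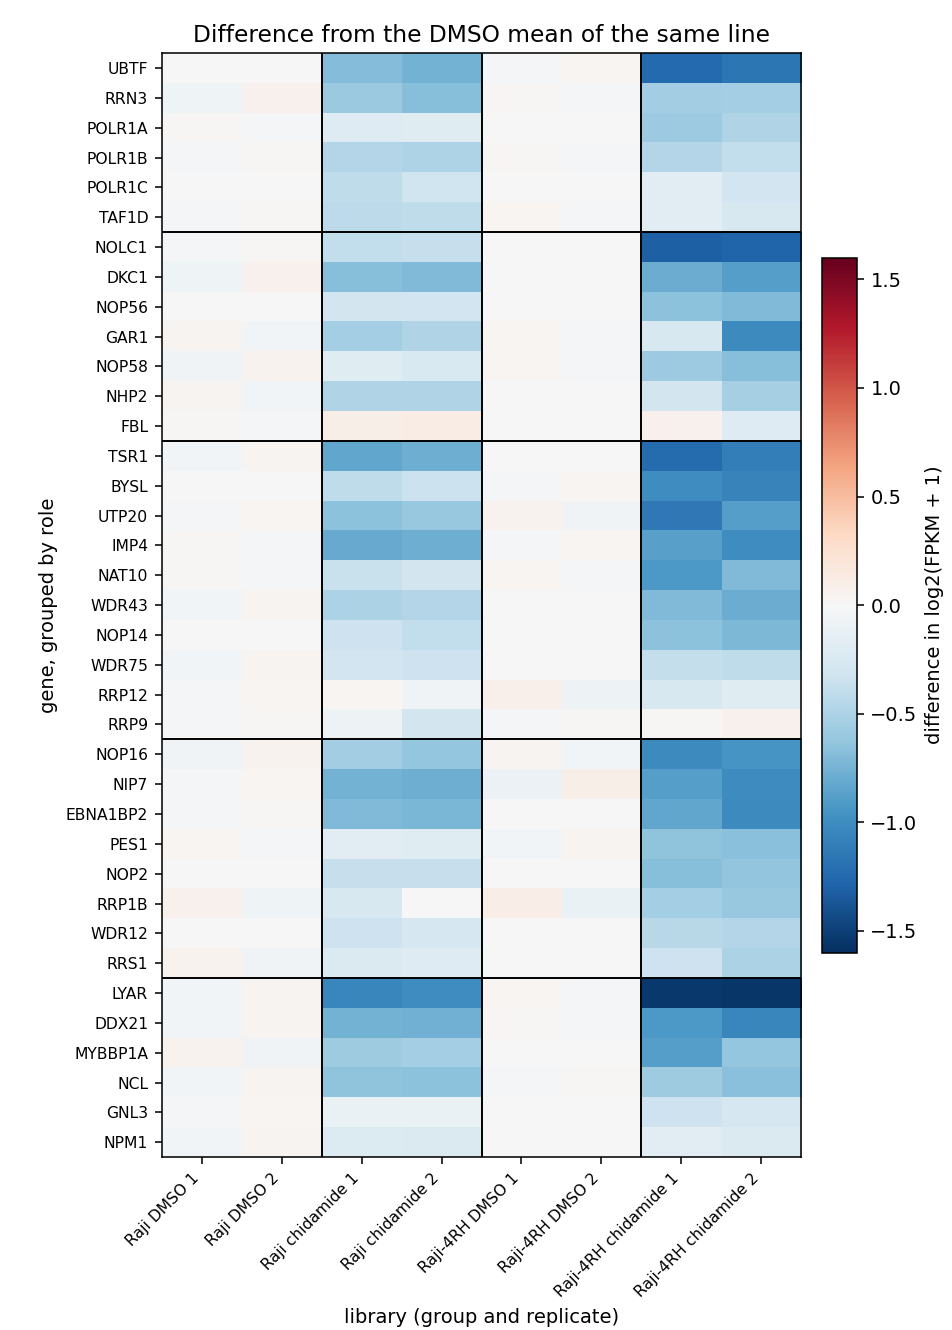
Difference of each library (columns) from the DMSO mean of its own line for each of the 37 genes (rows, grouped by role), in log2(FPKM + 1), with blue for lower and red for higher values. The 2 chidamide libraries of a line share their pattern except for some genes in Raji-4RH. There the first chidamide library is less blue or turns red for GAR1, FBL and NHP2, and is bluer for UTP20, MYBBP1A and NAT10.

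The median member differed from the DMSO mean of its line by -0.41 and -0.40 in the 2 Raji chidamide libraries and by -0.65 and -0.68 in the 2 Raji-4RH chidamide libraries on the log2 scale. Between replicates, the median member differed by 0.03 to 0.09 on this scale. The widest replicate gap belonged to GAR1 in Raji-4RH chidamide, at 0.77.

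All 6 genes of RNA polymerase I transcription fell in both lines, with median log2 fold changes of -0.48 in Raji-4RH and -0.45 in Raji. UBTF, the factor that binds and opens the ribosomal DNA for polymerase I, lies on chromosome 17 from 44205033 to 44221626 (GRCh38, GENCODE v29). Its levels were 46.7 and 48.8 FPKM in Raji-4RH DMSO, 19.5 and 20.8 FPKM in Raji-4RH chidamide, 56.4 and 56.1 FPKM in Raji DMSO, and 34.5 and 33.0 FPKM in Raji chidamide. The chidamide libraries lay well below the DMSO libraries in each line, and lowest in Raji-4RH. UBTF fell by 1.21 on the log2 scale in Raji-4RH (standard error 0.05, adjusted p = 3.2e-07) and by 0.72 in Raji (standard error 0.05, adjusted p = 1.3e-05). TAF1D is a subunit of the selectivity factor SL1, which recruits polymerase I to its promoter. Its levels were 26.2 and 24.9 FPKM in Raji-4RH DMSO, 22.5 and 21.2 FPKM in Raji-4RH chidamide, 19.3 and 19.7 FPKM in Raji DMSO, and 14.4 and 14.5 FPKM in Raji chidamide. The groups did not overlap, but the step was small in Raji-4RH. TAF1D fell by 0.22 in Raji-4RH (adjusted p = 0.0058) and by 0.41 in Raji (adjusted p = 0.00027), and the Raji-4RH call was lost without Raji-4RH DMSO replicate 1 (adjusted p = 0.0550).

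RRN3, which couples polymerase I to the promoter when growth signals are present, fell by 0.55 in Raji-4RH and 0.64 in Raji. The catalytic subunits were also lower. POLR1A fell by 0.53 and 0.20, and POLR1B by 0.43 and 0.48, in Raji-4RH and Raji in that order. POLR1C, a subunit shared with RNA polymerase III, fell by 0.25 and 0.36. The Raji call of POLR1A was lost when Raji DMSO replicate 1 or either Raji chidamide library was left out (adjusted p from 0.0560 to 0.0647).

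Of the 7 snoRNP genes, 6 fell in Raji-4RH and 5 in Raji, with medians of -0.64 and -0.38. NOLC1, a chaperone that moves snoRNPs through the nucleolus, lies on chromosome 10 from 102152176 to 102163871. It stood at 94.9 and 94.5 FPKM in Raji-4RH DMSO and at 37.7 and 38.3 FPKM in Raji-4RH chidamide, and at 88.0 and 90.5 FPKM in Raji DMSO and 67.6 and 68.9 FPKM in Raji chidamide. The chidamide libraries of Raji-4RH stood far below those of Raji, while without drug the log2 difference between the lines was 0.08 (adjusted p = 0.139). NOLC1 fell by 1.30 on the log2 scale in Raji-4RH (standard error 0.05, adjusted p = 1.2e-07), to 40.1% of the DMSO mean, and by 0.38 in Raji (adjusted p = 0.00019), to 76.4%. FBL, the methyltransferase of box C/D snoRNPs, was at 134 and 134 FPKM in Raji-4RH DMSO, 141 and 116 FPKM in Raji-4RH chidamide, 149 and 145 FPKM in Raji DMSO, and 157 and 160 FPKM in Raji chidamide. Its 2 Raji-4RH chidamide libraries lay on either side of the DMSO libraries. FBL had log2 fold changes of -0.07 in Raji-4RH (adjusted p = 0.469) and 0.11 in Raji (adjusted p = 0.307). Without Raji-4RH chidamide replicate 1 its value in Raji-4RH was -0.21, and without replicate 2 it was 0.07.

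NOP56 and NOP58, the core proteins that sit beside FBL in the box C/D particle, fell by 0.68 and 0.63 in Raji-4RH and by 0.30 and 0.22 in Raji. The Raji call of NOP58 was lost without Raji DMSO replicate 2 or Raji chidamide replicate 2 (adjusted p = 0.0935 and 0.0956). In the box H/ACA particle, DKC1, the pseudouridine synthase, fell by 0.84 and 0.69, and NHP2 by 0.41 and 0.49, in Raji-4RH and Raji. GAR1, the remaining H/ACA protein measured, was at 37.4 and 35.9 FPKM in Raji-4RH DMSO and at 30.5 and 17.5 FPKM in Raji-4RH chidamide, so that its chidamide libraries disagreed with each other by more than the nearer one differed from DMSO. It fell by 0.64 in Raji-4RH (adjusted p = 0.0171), a call that was lost without either Raji-4RH DMSO library (adjusted p = 0.0766 and 0.0584). In Raji its log2 fold change was -0.51 (adjusted p = 0.0538), which passed with median-centred libraries (adjusted p = 0.0472) and with limma voom on the recovered reads (adjusted p = 0.0150). It also passed with a replicate block (adjusted p = 0.0394) and in the limma fit of the Raji libraries alone (adjusted p = 0.0010), and under no other alternative checked by gene. The main fit takes 1 spread per gene over all 4 groups, so the gap between the Raji-4RH chidamide libraries enters the test in Raji.

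Of the 10 genes of small subunit assembly, 9 fell in Raji-4RH and 8 in Raji, with medians of -0.78 and -0.37. TSR1, a factor of the late 40S particle, was at 38.6 and 38.0 FPKM in Raji-4RH DMSO, 15.7 and 17.3 FPKM in Raji-4RH chidamide, 34.7 and 36.8 FPKM in Raji DMSO, and 19.7 and 20.3 FPKM in Raji chidamide. Every chidamide library lay far below every DMSO library. TSR1 fell by 1.17 in Raji-4RH (standard error 0.06, adjusted p = 6.5e-07) and by 0.81 in Raji (standard error 0.06, adjusted p = 1.3e-05). BYSL, which helps the 40S precursor mature, was at 35.4 and 37.2 FPKM in Raji-4RH DMSO, 17.7 and 16.8 FPKM in Raji-4RH chidamide, 26.6 and 26.9 FPKM in Raji DMSO, and 20 and 20.8 FPKM in Raji chidamide. Raji-4RH started above Raji and ended below it. BYSL fell by 1.03 in Raji-4RH (adjusted p = 6.2e-07) and by 0.38 in Raji (adjusted p = 0.00041).

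IMP4, a protein of the U3 processome and the most abundant member of this group, was at 130 and 135 FPKM in Raji-4RH DMSO, 72.3 and 66.0 FPKM in Raji-4RH chidamide, 118 and 114 FPKM in Raji DMSO, and 65.9 and 67.3 FPKM in Raji chidamide. It fell by 0.93 in Raji-4RH (adjusted p = 2.1e-06) and by 0.79 in Raji (adjusted p = 1.4e-05), with 52.3% and 57.4% of the DMSO mean left. RRP9, a protein bound to the U3 snoRNA, was the other gene that did not pass in either line. It was at 1.96 and 2.03 FPKM in Raji-4RH DMSO, 2.04 and 2.13 FPKM in Raji-4RH chidamide, 6.23 and 6.42 FPKM in Raji DMSO, and 5.90 and 4.96 FPKM in Raji chidamide. Its log2 fold changes were 0.04 in Raji-4RH (adjusted p = 0.631) and -0.19 in Raji (adjusted p = 0.0586), and quantile normalization turned the first to -0.46 (adjusted p = 8.3e-04). These levels rest on 45 to 68 reads per library in Raji-4RH.

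The rest of the small subunit group spread between these. UTP20, a scaffold of the processome, fell by 1.02 and 0.63 in Raji-4RH and Raji, NAT10, the acetyltransferase of 18S rRNA, by 0.81 and 0.33, and WDR43 by 0.75 and 0.49. NOP14 fell by 0.69 and 0.36 and WDR75 by 0.40 and 0.32. RRP12, which aids export of precursors and stood at only 0.889 to 1.64 FPKM, fell by 0.22 in Raji-4RH (adjusted p = 0.0222) and had a log2 fold change of -0.01 in Raji (adjusted p = 0.886). Its Raji-4RH call was lost without Raji-4RH DMSO replicate 1 (adjusted p = 0.153) or Raji-4RH chidamide replicate 1 (adjusted p = 0.0715), and at such levels the log2(FPKM + 1) scale understates a change.

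All 8 genes of large subunit assembly fell in Raji-4RH and 7 fell in Raji, with medians of -0.65 and -0.33. NOP16, a nucleolar assembly factor, was at 43.4 and 41.1 FPKM in Raji-4RH DMSO, 20.3 and 21.4 FPKM in Raji-4RH chidamide, 38.1 and 41.1 FPKM in Raji DMSO, and 26.6 and 25.5 FPKM in Raji chidamide. It had the lowest log2 fold change of the group in Raji-4RH, falling by 0.98 (standard error 0.06, adjusted p = 1.5e-06), and fell by 0.58 in Raji (adjusted p = 7e-05). PES1, which works in a complex with BOP1 and WDR12 on the 60S precursor, was at 64.1 and 67.8 FPKM in Raji-4RH DMSO, 41.8 and 41.2 FPKM in Raji-4RH chidamide, 64.7 and 61.5 FPKM in Raji DMSO, and 55.5 and 54.8 FPKM in Raji chidamide. Its partner WDR12 fell by 0.46 and 0.30. PES1 fell by 0.66 in Raji-4RH (adjusted p = 7.4e-06) and by 0.19 in Raji (adjusted p = 0.0138), and the Raji call was lost without Raji DMSO replicate 1 or either Raji chidamide library (adjusted p from 0.0661 to 0.0859).

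RRS1, which brings the 5S particle into the large subunit, was at 52.3 and 52.6 FPKM in Raji-4RH DMSO, 41.6 and 36.6 FPKM in Raji-4RH chidamide, 72.9 and 67.6 FPKM in Raji DMSO, and 59.5 and 60.8 FPKM in Raji chidamide. It had the smallest fall of the group in Raji-4RH, by 0.42 (adjusted p = 0.00063), and fell by 0.22 in Raji (adjusted p = 0.0241). Its Raji call was lost without Raji DMSO replicate 1 or either Raji chidamide library (adjusted p from 0.0813 to 0.143). NIP7 fell by 0.94 and 0.77, EBNA1BP2 by 0.93 and 0.72, and NOP2, a methyltransferase of 28S rRNA, by 0.65 and 0.37 in Raji-4RH and Raji. RRP1B, at 0.914 to 2.42 FPKM, fell by 0.57 in Raji-4RH (adjusted p = 0.0014) and had a log2 fold change of -0.13 in Raji (adjusted p = 0.348).

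All 6 structural and regulatory nucleolar genes fell in Raji-4RH and 5 fell in Raji, with medians of -0.69 and -0.60. LYAR, a zinc finger protein of the nucleolus that supports rRNA processing, lies on chromosome 4 from 4267701 to 4290169. Its levels were 44.9 and 43.3 FPKM in Raji-4RH DMSO, 14.5 and 14.3 FPKM in Raji-4RH chidamide, 50.2 and 53.1 FPKM in Raji DMSO, and 24.6 and 25.5 FPKM in Raji chidamide. This was the deepest fall of any member in both lines. LYAR fell by 1.55 on the log2 scale in Raji-4RH (standard error 0.05, adjusted p = 9.4e-08) and by 1.02 in Raji (standard error 0.05, adjusted p = 1.8e-06). NPM1, the abundant nucleolar chaperone, was at 713 and 718 FPKM in Raji-4RH DMSO, 632 and 607 FPKM in Raji-4RH chidamide, 427 and 456 FPKM in Raji DMSO, and 379 and 377 FPKM in Raji chidamide. The step was the smallest of the group in Raji-4RH.

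NPM1 fell by 0.21 in Raji-4RH (adjusted p = 0.0129) and by 0.22 in Raji (adjusted p = 0.0120). The Raji-4RH call was lost without either Raji-4RH DMSO library (adjusted p = 0.0643 and 0.0766), and the Raji call without Raji DMSO replicate 2 or either Raji chidamide library (adjusted p from 0.0768 to 0.0849). NCL, nucleolin, fell by 0.62 and 0.65, and DDX21, an RNA helicase that works with polymerase I and snoRNPs, by 0.98 and 0.77 in Raji-4RH and Raji. MYBBP1A fell by 0.75 and 0.55. GNL3, nucleostemin, fell by 0.30 in Raji-4RH (adjusted p = 0.00072) and had a log2 fold change of -0.11 in Raji (adjusted p = 0.104). Falls of at least 1 on the log2 scale were seen in 6 members in Raji-4RH (LYAR, NOLC1, UBTF, TSR1, BYSL and UTP20) and in LYAR alone in Raji. Such falls were not counted over all genes, so nothing particular to the members is read from them. On this log2(FPKM + 1) scale NIP7, NOP16 and RRP1B fell by less than 1 in Raji-4RH, with 49.2%, 49.4% and 50.2% of the DMSO mean FPKM left.

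Next, the difference between the lines in their response to chidamide was tested as an interaction, in which a negative value means a larger fall in Raji-4RH. Of the 37 members, 16 had a negative interaction that passed the test and none had a positive one, while 21.7% of all genes tested were called lower and 27.2% higher in this term. The median interaction was -0.21 over the members and 0.04 over all genes. A larger fall in Raji-4RH was not particular to the members. Of 110 other ribosome biogenesis genes tested, 42 (38.2%) passed as negative and 7 (6.4%) as positive, with a median of -0.17, where 43.2% of the members passed as negative. In 29 of the 37 genes the estimate was lower in Raji-4RH than in Raji, a count that was not made over all genes. Across the 37 genes the log2 fold changes of the lines had a Pearson correlation of 0.737 and a Spearman correlation of 0.691, against a Pearson correlation of 0.688 across all genes tested. The genes of each line share their libraries, so this describes the pattern and is given without a p-value.

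**Figure D3:**
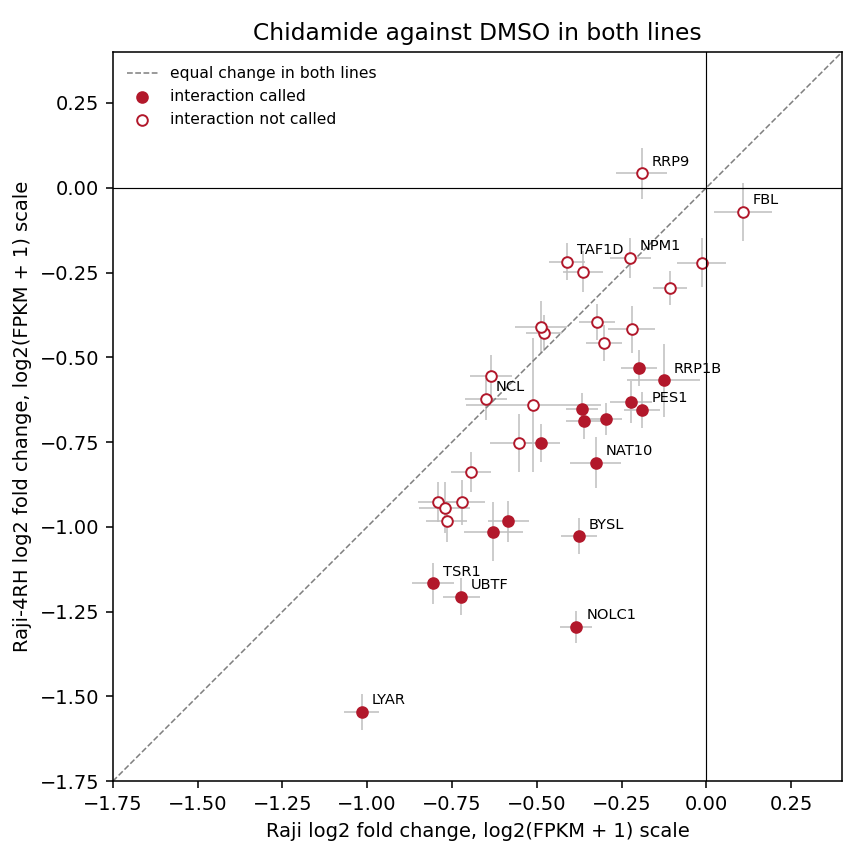
Log2 fold change with chidamide in Raji (horizontal axis) and in Raji-4RH (vertical axis), both on the log2(FPKM + 1) scale, for the 37 genes, with grey bars for standard errors, a dashed line for equal change and filled points where the interaction passed the test. The 16 filled points all lie below the dashed line, and NOLC1 lies farthest from it with an interaction of -0.91.

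NOLC1 had the strongest interaction, at -0.91 (standard error 0.07, adjusted p = 2.8e-05), followed by BYSL at -0.65 (adjusted p = 0.00025) and LYAR at -0.53 (adjusted p = 0.00067). By role, the interaction passed in 6 of 10 small subunit genes, 4 of 8 large subunit genes, 3 of 7 snoRNP genes, 2 of 6 polymerase I genes and 1 of 6 nucleolar genes. Among the other snoRNP genes NOP56 (-0.39) and NOP58 (-0.41) passed, while FBL (-0.18), DKC1 (-0.14), GAR1 (-0.13) and NHP2 (0.08) did not. UBTF (-0.48) and POLR1A (-0.33) were the polymerase I genes that passed. PES1 (-0.47), NOP16 (-0.40), NAT10 (-0.48) and TSR1 (-0.36) passed as well. For the 4 genes that fell in Raji-4RH and did not pass in Raji, the difference itself passed for RRP1B (-0.44, adjusted p = 0.0418) and not for GAR1, RRP12 or GNL3 (adjusted p = 0.724, 0.129 and 0.0553). RRP1B lost this call with the replicate block (adjusted p = 0.0546) and with no filter (adjusted p = 0.0839), and GNL3 passed with median-centred libraries (adjusted p = 0.0267) and with no filter (adjusted p = 0.0386).

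Leaving out single libraries kept 13 of the 16 interaction calls in every case. The calls of RRP1B, UTP20 and WDR43 were each lost for 5 of the 8 libraries. RRP1B lost its call without either Raji DMSO library, Raji chidamide replicate 2, Raji-4RH DMSO replicate 1 or Raji-4RH chidamide replicate 2 (adjusted p from 0.0592 to 0.140). UTP20 lost it without any of the Raji libraries or Raji-4RH DMSO replicate 1 (adjusted p from 0.0620 to 0.108). WDR43 lost it without Raji DMSO replicate 1, either Raji chidamide library or either Raji-4RH DMSO library (adjusted p from 0.0579 to 0.0962). GAR1 went both ways, with an interaction of -0.52 when Raji-4RH chidamide replicate 1 was left out and of 0.25 when replicate 2 was. Either omission leaves 1 library in the group whose replicates differed most, and that group then adds nothing to the spread. NHP2 also changed sign under these omissions, at -0.04 and 0.20. After quantile normalization, NHP2 (0.26, adjusted p = 0.0373) and TAF1D (0.30, adjusted p = 0.0219) passed as positive interactions, and NPM1 (-0.36, adjusted p = 0.0055), RRP12 (-0.60, adjusted p = 0.0019) and WDR12 (-0.26, adjusted p = 0.0320) as negative ones, while WDR43 did not pass (-0.18, adjusted p = 0.116).

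Without drug, the members had no common direction between the lines. In Raji-4RH DMSO against Raji DMSO, 14 of the 37 genes were lower, 11 were higher and 12 did not pass, against 32.4% of all genes lower and 41.2% higher. The median log2 difference was -0.05 over the members and 0.06 over all genes. RRP9 was 6.23 and 6.42 FPKM in Raji and 1.96 and 2.03 FPKM in Raji-4RH, the widest gap of any member, with a log2 difference of -1.29 (standard error 0.08, adjusted p = 1.1e-06). NAT10 was at 50.4 and 49.2 FPKM in Raji and 25.5 and 24.3 FPKM in Raji-4RH, a log2 difference of -0.97 (adjusted p = 5.6e-06). GNL3 (-0.70), NOP58 (-0.49), NIP7 (-0.42), RRS1 (-0.41) and NHP2 (-0.39) were also lower in Raji-4RH, as were WDR75 (-0.35), POLR1B (-0.28), NOP2 (-0.25), UBTF (-0.23), LYAR (-0.22), WDR43 (-0.19) and EBNA1BP2 (-0.19).

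**Figure D4:**
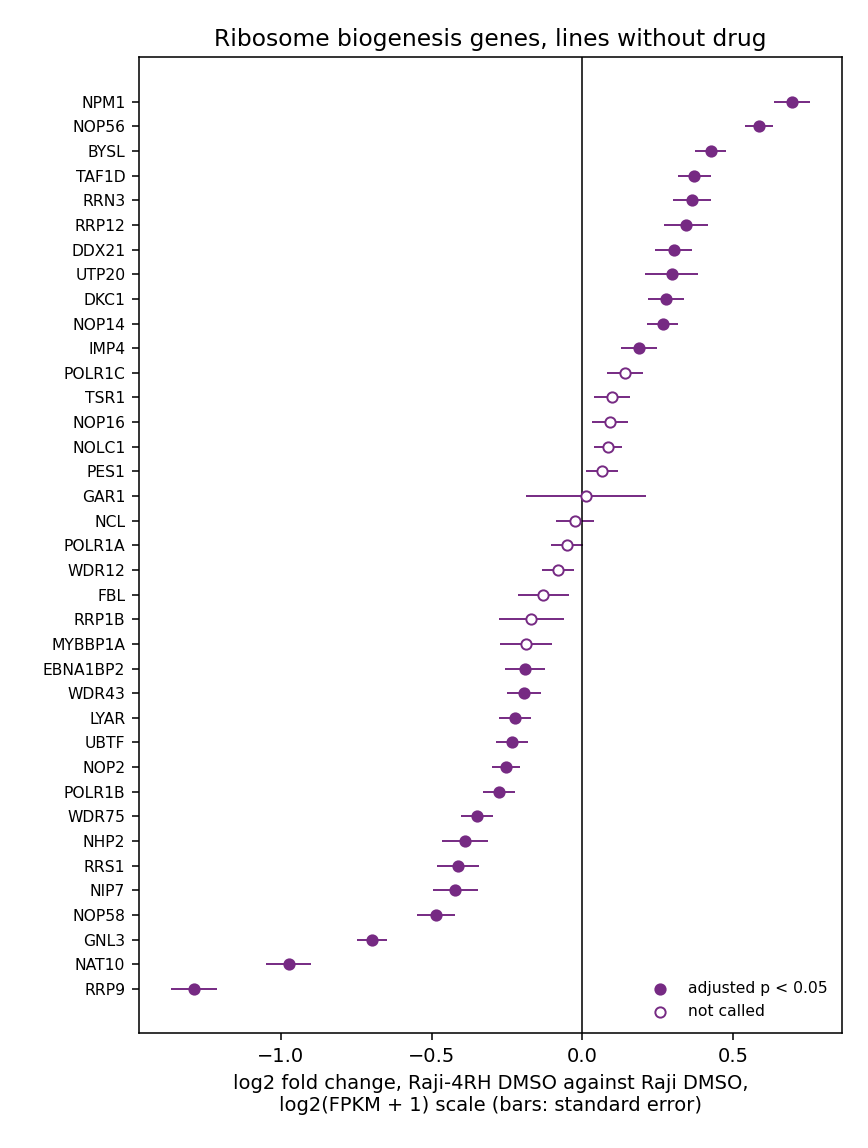
Log2 difference between Raji-4RH DMSO and Raji DMSO (horizontal axis, log2(FPKM + 1) scale, bars are standard errors) for the 37 genes in order of size, with filled points for adjusted p under 0.05. The 14 genes lower in Raji-4RH reach down to RRP9 at -1.29 and the 11 higher genes reach up to NPM1 at 0.70.

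The genes that were higher in Raji-4RH without drug were led by NPM1, at 427 and 456 FPKM in Raji and 713 and 718 FPKM in Raji-4RH, a log2 difference of 0.70 (standard error 0.06, adjusted p = 1.2e-05). NOP56 was next at 0.59 and BYSL at 0.43. TAF1D (0.37), RRN3 (0.36), RRP12 (0.34), DDX21 (0.30), UTP20 (0.30), DKC1 (0.28), NOP14 (0.27) and IMP4 (0.19) completed this set. Of the core proteins of the box C/D particle, NOP56 was higher and NOP58 lower in Raji-4RH. The calls of UTP20, WDR43, EBNA1BP2 and IMP4 were lost in some of the fits without 1 library, UTP20 without replicate 1 of either DMSO group (adjusted p = 0.0756 and 0.0948), EBNA1BP2 without any of the 4 DMSO libraries (adjusted p from 0.0620 to 0.123), and WDR43 and IMP4 without Raji DMSO replicate 2 or either Raji-4RH DMSO library (adjusted p from 0.0628 to 0.0814 and from 0.0541 to 0.123). Quantile normalization also ended the call of RRP12 (0.12, adjusted p = 0.173).

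The promoters of the members were then searched for CACGTG, the E-box to which MYC and its partner MAX bind and which reads the same on both strands. RefSeq promoter windows on GRCh38.p14, from 250 bases before to 50 bases after the start site, were found for 32 of the 37 genes, and those of NOP58, NOLC1, RRP1B, RRP12 and RRS1 were not found in the table used. The motif was in 12 of the 32 windows (37.5%), against 7.3% of the 35116 promoters in the table, 10.2% of the 8387 promoters of genes tested here, 25.8% of 89 promoters of other ribosome biogenesis genes and 3.3% of 60 promoters of ribosomal proteins. In 11 of the 12 genes the motif lay within 40 bases of the start site. The windows printed here, with the motif in capitals and 12 bases on each side, show the motif in members that fell in both lines and in the pair that did not pass in either line. Each is written 5′ to 3′ on the strand of the gene, from chr6:41921515-41921544 (BYSL, plus strand), chr12:101280083-101280112 (UTP20, plus), chr2:130342900-130342929 (IMP4, plus), chr11:34105602-34105631 (NAT10, plus), chr2:28894658-28894687 (WDR43, plus), chr19:39846356-39846385 (FBL, minus) and chr3:51941892-51941921 (RRP9, minus).
BYSL: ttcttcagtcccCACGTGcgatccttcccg
UTP20: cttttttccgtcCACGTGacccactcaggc
IMP4: ttctcccggaccCACGTGgaagcggcactc
NAT10: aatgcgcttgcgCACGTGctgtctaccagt
WDR43: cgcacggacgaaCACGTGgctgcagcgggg
FBL: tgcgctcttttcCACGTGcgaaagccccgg
RRP9: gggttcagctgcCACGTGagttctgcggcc

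Counted from the start site as position 1, with no position 0, the motif began at -15 in NAT10, -10 in UTP20, -5 in RRP9, 4 in WDR43, 7 in FBL, 16 in IMP4 and 29 in BYSL. EBNA1BP2, MYBBP1A, NOP14 and PES1 were among the other holders, and IMP4 held a further copy at -203. Members with and without the motif had median log2 fold changes of -0.75 and -0.59 in Raji-4RH and of -0.37 and -0.50 in Raji. In each line 10 of the 12 genes with the motif fell, and of the 20 without it 20 fell in Raji-4RH and 18 in Raji. FBL and RRP9, which did not pass in either line, both held the motif close to the start site. A match is a description of the letters in this window and not a binding site. MYC itself was at 186 and 198 FPKM in Raji-4RH DMSO, 151 and 181 FPKM in Raji-4RH chidamide, 170.0 and 155 FPKM in Raji DMSO, and 169 and 170.0 FPKM in Raji chidamide. Its log2 fold changes were -0.21 in Raji-4RH (adjusted p = 0.0586) and 0.06 in Raji (adjusted p = 0.578).

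Of the 7 genes of the MYC network that were placed, 4 rose and 1 fell in each line, where 43.3% of all genes rose and 31.6% fell in Raji-4RH and 31.5% rose and 28.5% fell in Raji, and nothing particular to the network is read from so few genes. With median-centred libraries and with limma voom, 4 of the 7 rose and 2 fell in Raji-4RH. MXD4, which pairs with MAX in place of MYC and represses transcription, went from 3.17 and 3.46 FPKM to 18.6 and 19.3 FPKM in Raji-4RH and from 7.86 and 6.93 FPKM to 11.5 and 12.5 FPKM in Raji. It rose by 2.21 in Raji-4RH (adjusted p = 8.5e-08) and by 0.63 in Raji (adjusted p = 1.4e-04), with an interaction of 1.58 (adjusted p = 1.8e-05). MNT, another repressor that pairs with MAX, fell by 0.25 in Raji-4RH and by 0.28 in Raji. Whether either bears on the members was not tested.

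Some members also carry snoRNA genes in their introns. By GENCODE v29, 8 members host 33 snoRNA genes (TAF1D, GNL3, NOP56, NOP58, NCL, WDR43, DKC1 and TSR1), TAF1D the most with 8. All 8 hosts fell in Raji-4RH (median -0.66), as did 27 of the 29 other members (median -0.65). In Raji 7 of the 8 hosts and 24 of the 29 others fell, with medians of -0.45 and -0.38. The snoRNAs themselves were not analysed here. The 37 genes lie on 17 chromosomes. In 5 of them more than 20% of the exon length is shared with another gene, namely NOP2 (54.4%, same strand), NHP2 (27.4%), TSR1 (20.8%), EBNA1BP2 (20.5%) and NIP7 (20.2%). Whether strand was used in counting was not stated, so that reads of such pairs cannot be told apart, and NPM1 and RRN3 have pseudogene copies that may share their reads. The exon length in GENCODE v29 equalled the deposited gene length in 35 of the 37 genes. It was 4749 against 3274 bases in NIP7 and 5550 against 2867 bases in POLR1C. The shared part given for NIP7 may therefore not describe the exons on which its reads were counted.

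Other genes of the same pathway also fell more often than they rose. Of 110 other ribosome biogenesis genes tested, 75 (68.2%) fell and 9 (8.2%) rose in Raji-4RH (median -0.39), and 63 (57.3%) fell and 8 (7.3%) rose in Raji (median -0.23). Of all genes tested, 31.6% fell and 43.3% rose in Raji-4RH, and 28.5% fell and 31.5% rose in Raji. TCOF1, the treacle protein that works with UBTF on ribosomal DNA, went from 23.9 and 24.8 FPKM to 8.0 and 8.11 FPKM in Raji-4RH, a fall of 1.48. CCDC86, a nucleolar protein, fell by 1.44, UTP18, a processome protein, by 1.09, and NAF1, a factor of H/ACA assembly, by 0.70. On the other side, UTP3 rose by 0.85, PIH1D1 by 0.81, POLR1D by 0.64 and NOP53 by 0.32 in Raji-4RH. By role, 6 of 14 other polymerase I genes were lower and 2 higher in Raji-4RH, with 5 and 2 of 10 other snoRNP genes, 26 and 3 of 37 other small subunit genes and 38 and 2 of 49 other large subunit genes.

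The genes for the proteins of the ribosome itself moved the other way in Raji-4RH. Of 76 cytosolic ribosomal protein genes tested, none fell and 71 rose in Raji-4RH (median 0.40), while 1 fell and 18 rose in Raji (median 0.13). That is 93.4% higher in Raji-4RH, against 43.3% of all genes, and 23.7% higher in Raji, which is below the 31.5% of all genes. With quantile normalization 57 of the 76 rose in Raji-4RH and 28 in Raji, where 3718 and 2643 of all 10710 genes rose. With median-centred libraries it was 52 and 8, where 4141 and 3036 of all genes rose. In the fit of only the Raji libraries 37 rose, where 3571 of all genes rose. Whether the Raji share was below or above that of all genes therefore depended on the setting. RPS27 went from 1730 and 1590 FPKM to 3850 and 2130 FPKM in Raji-4RH, the highest log2 fold change of these genes (0.79, adjusted p = 0.0111), and its chidamide libraries differed widely. RPL19 went from 534 and 527 FPKM to 599 and 592 FPKM, or 0.17 on the log2 scale (adjusted p = 0.0221). Dropping Raji-4RH chidamide replicate 1 gave a median over the ribosomal protein genes of 0.27 in Raji-4RH, and dropping replicate 2 gave 0.51. Many ribosomal protein genes have processed pseudogenes, and how reads that match several places were counted was not stated.

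**Figure D5:**
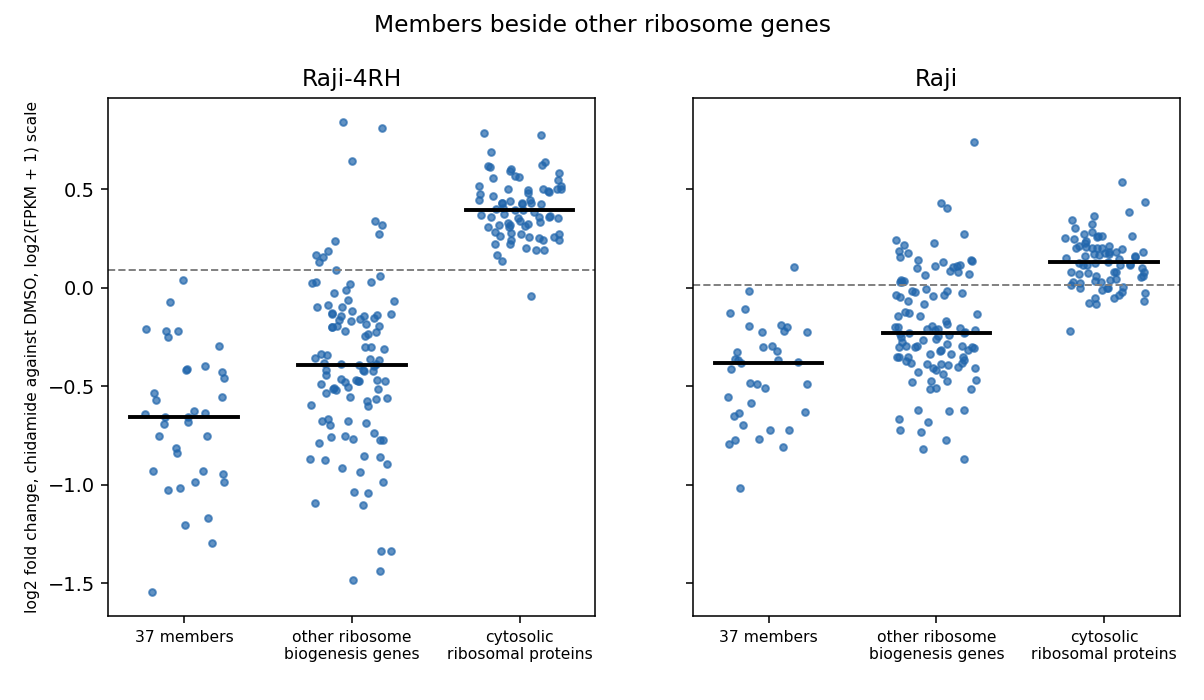
Log2 fold change with chidamide against DMSO (vertical axis, log2(FPKM + 1) scale) of the 37 members, 110 other ribosome biogenesis genes and 76 cytosolic ribosomal protein genes in Raji-4RH (left) and Raji (right), where each point is a gene, black bars are medians and the dashed line is the median of all genes tested. In Raji-4RH the medians are -0.65, -0.39 and 0.40, on both sides of the dashed line at 0.09.

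Markers of other cell types were low but also moved with chidamide. The summed level of 8 T and NK cell markers was 1.39 to 1.74 FPKM in Raji DMSO, 3.87 to 4.98 FPKM in Raji chidamide, 6.33 to 7.67 FPKM in Raji-4RH DMSO and 17.6 to 18.4 FPKM in Raji-4RH chidamide. Only NKG7 was at 1 FPKM or more in all libraries. The 6 myeloid markers summed to 1.09 to 1.21 FPKM with DMSO and to 11 to 12.1 FPKM with chidamide. HBA2, a haemoglobin gene, was at 12.9 FPKM in Raji-4RH chidamide replicate 1 and at 0.444 FPKM or less in the other 7 libraries. The part of these genes in the members' fall was not tested. The T, NK and myeloid sums rose in both Raji-4RH chidamide libraries, so dropping a single library cannot decide their part. The members' median log2 fold change in Raji-4RH was -0.68 with the first of these libraries dropped and -0.65 with the second dropped.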

How the data were processed

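Reads of human cells were processed by the authors, whose submitters' processing notes name HISAT2 2.0.5, SAMtools 1.7, HTSeq 0.9.1, DESeq2 1.22.2 and GRCh38, with no role given for each. Strand and multiple matches were not given in the sources used here. The authors deposited 1 table of FPKM values (reads per length and library total) for 8 libraries, with 63967 labels and values for 63305 rows, since the last 662 rows repeat the first. Values were taken from 0 to 14 rows below the label by a fixed rule for blocks of rows and rescaled by gene length, which placed 18143 labels holding 90.7% to 93.2% of reads. Labels outside these blocks were not analysed here. Multiplied by length and library total, 100% of non-zero values were whole reads within 0.05.

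Differences were tested with limma 3.58.1 (lmFit, eBayes with trend) in R 4.3.3 on log2(FPKM + 1) over all 8 libraries, for genes that reached 1 FPKM in 2 or more libraries, with Benjamini-Hochberg adjustment over all 10710 genes and calls at 0.05. The smallest two-sided p-value of an exact permutation of 2 against 2 libraries is 0.333, and the calls therefore rest on the spread that limma shares across genes. The script was tested on simulated data. FPKM is no count, so no count model was the main test, and limma voom on recovered reads was an alternative, which called 4705 genes higher and 3408 lower in Raji-4RH. Others were quantile normalization, median-centred libraries, a pseudocount of 0.1, other filters, no trend, only the libraries compared, a replicate block, rows as deposited, members in unshifted rows and leaving out each library. Leaving out a library leaves 1 library in its group, so that group adds nothing to the spread in that fit. Python 3.11.15 with pandas 2.3.3, numpy 2.4.6 and matplotlib 3.10.9 was used.

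The members and gene lists were chosen with earlier results of these data known. Values in every library are given, within each role, for the member with the highest mean FPKM, those with the lowest and highest log2 fold change in Raji-4RH and that with the largest interaction, and outside the members for MYC and, per list, the called genes with the lowest and highest log2 fold change in Raji-4RH. GAR1, MXD4, TCOF1 and HBA2 details beyond this rule were chosen after their values were seen. Promoters are RefSeq windows, and gene positions are from GENCODE v29. Part of the B cell marker list is not reported here.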

Additional observations from a re-analysis of the deposited data

Results flagged for a closer look

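The effect of chidamide differed between the lines, by the interaction term of limma, in 16 of the 37 genes, each with a larger fall in Raji-4RH. On the log2 scale the difference between the lines was -0.91 in NOLC1, -0.65 in BYSL, -0.53 in LYAR, -0.48 in UBTF and -0.48 in NAT10. It was -0.47 in PES1, -0.44 in RRP1B, -0.41 in NOP58, -0.40 in NOP16 and -0.39 in both NOP56 and UTP20. In TSR1 it was -0.36, in POLR1A -0.33, in NOP14 -0.33, in NOP2 -0.29 and in WDR43 -0.27. With 2 libraries in each group, no group was large enough for a search for single outlying libraries.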

How the results depend on the processing

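Counts of members called lower and medians kept their direction in both chidamide comparisons under every alternative run. Over single genes and alternatives, 460 results in Raji-4RH kept direction and side of the threshold, 16 lost the call, 1 gained it and 4 changed sign, against 446, 19, 12 and 4 in Raji. Quantile normalization gave 1 member higher in Raji-4RH (median -0.50) and 1 in Raji (median -0.33), and 2 with a positive interaction. Median-centred libraries gave medians of -0.73, -0.42, -0.24 and -0.095 in Raji-4RH, Raji, the interaction and the comparison without drug. The Raji-4RH median was -0.68 with a pseudocount of 0.1 and -0.69 with limma voom, and the fit of only the libraries compared had 32 members lower in Raji-4RH (NPM1, GAR1 and RRP12 lost, adjusted p = 0.0793, 0.0729 and 0.0506) and 1 (FBL) higher in Raji. Rows as deposited gave 4 higher (median -0.42) in Raji-4RH, 6 higher and 54.55% lower (median -0.22) in Raji, 3 with a positive interaction, and a median of -0.024 without drug. The 19 members in unshifted rows had a median interaction of -0.29 and, without drug, 6 higher and a median of -0.024.

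Leaving out 1 library gave medians from -0.68 to -0.65 (Raji-4RH), -0.41 to -0.37 (Raji), -0.28 to -0.20 (interaction) and -0.075 to -0.041 (without drug), and 0 to 3 positive interactions. Members near 0 changed sign. In Raji-4RH, FBL was 0.20 with quantile normalization and -0.21 to 0.071 without 1 library, and RRP9 was -0.46 with quantile normalization and -0.034 with median-centred libraries. In Raji, GNL3 was 0.023 with quantile normalization, RRP1B ranged from -0.26 to 0.008 and RRP12 from -0.060 to 0.032 without 1 library. Interactions that changed sign were NCL (-0.008 median-centred, -0.028 to 0.083 without 1 library), NPM1 (-0.36 quantile, -0.019 median-centred, -0.031 to 0.064), RRP9 (-0.21 quantile), IMP4 (0.084 quantile), GAR1 (-0.52 to 0.25) and NHP2 (-0.041 to 0.20). Without drug these were GAR1 (-0.032 median-centred, -0.029 to 0.053) and NCL (-0.075 to 0.026). The cause was not tested.

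Replicate numbers are not said to mark shared cultures or days. Deviations of libraries with the same number had correlations between DMSO and chidamide of -0.091 in Raji and 0.17 in Raji-4RH. Between groups of different lines the correlations ran from -0.279 to 0.013. With 2 libraries in each group, these values cannot settle whether the numbers pair the samples. With the replicate block, 35, 32 and 15 members were called lower in Raji-4RH, Raji and the interaction, and 14 lower and 11 higher without drug. The block lost the interaction of RRP1B (adjusted p = 0.0546) and gained GAR1 in Raji (adjusted p = 0.0394). Each group has only 2 libraries, and RRP1B, RRP9 and RRP12 rest on few reads.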

Other observations

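The list of long transcripts that host snoRNAs could be followed in only 4 of 14 genes, since the others have labels outside the rows that were placed. In Raji-4RH 2 of the 4 rose and 1 fell with chidamide, and in Raji 1 rose and 3 fell. ZFAS1 was at 224 and 215 FPKM in Raji-4RH DMSO, 346 and 324 FPKM in Raji-4RH chidamide, 72.7 and 74.3 FPKM in Raji DMSO, and 92.1 and 91.2 FPKM in Raji chidamide, and rose by 0.61 and 0.31 on the log2 scale. SNHG17 was at 27.3 and 27.8 FPKM in Raji-4RH DMSO and 16.4 and 18.2 FPKM in Raji-4RH chidamide, and fell by 0.64 in Raji-4RH and 0.41 in Raji.

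The interaction of the cytosolic ribosomal protein genes depended on which Raji-4RH chidamide library was kept. With all libraries 21 of 76 (27.6%) had a positive interaction, a share close to the 27.2% of all genes. Without Raji-4RH chidamide replicate 1 it was 33 genes (and 1 the other way), and without replicate 2 it was 66. For the members, the same omissions gave 22 and 17 genes with a larger fall in Raji-4RH, against 16 with all libraries.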
